A study of Mus musculus with 8 samples.

Results

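The Toll-like receptors are a family of innate immune receptors that recognise conserved microbial molecules and products of damaged cells. Their genes Tlr1, Tlr2, Tlr3, Tlr4, Tlr6, Tlr7, Tlr8, Tlr9 and Tlr13, with the adaptor gene Myd88, were chosen by symbol as a named family. These 10 of the 33696 genes in the expression matrices were described across 7 cell groups. The groups were set by a few marker genes that do not include any member.

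Tlr1, Tlr2, Tlr4 and Tlr6 encode receptors of the cell surface, which sense bacterial lipoproteins and, for Tlr4, lipopolysaccharide. Tlr3, Tlr7, Tlr8, Tlr9 and Tlr13 encode receptors of endosomes, which sense nucleic acids. All except Tlr3 signal through MyD88, and Tlr4 also uses the adaptor TRIF. In the brain, microglia are the resident macrophages and are known for expressing many of these receptors.

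The cells came from brain tumours of EPZFTA-RELA (NestinCreERT2;Fus1;RFPTdT) mice, which carry the ZFTA-RELA fusion expressed from a Nestin-driven Cre and develop ependymoma. All mice of both groups carried this genotype and a tumour. At 3 weeks of age the mice were assigned at random to 1 intrathecal dose of mavrilimumab, an antibody against the GM-CSF receptor alpha chain, at 5 mg per kg, or to a control antibody (vehicle IgG). Mice were followed to a humane endpoint per the labels, and the study describes these cells as taken at recurrence; the interval from the dose to each library is not given in the sources used here. The study's protocol gives an age of 6 to 8 weeks at dissociation, and whether this covers the mice at recurrence is not stated. Tumours were dissociated and stained for the leukocyte marker CD45 and the erythroid marker Ter119. Extravascular CD45+ cells were sorted per the study and profiled in 4 droplet 5' libraries, 2 per group. The study gives a range of tumours pooled per group and describes pooled experiments, but not how many mice each library holds, so p-values measure only the spread between these pools.

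The libraries held 24354457 to 148657643 unique molecular identifiers (UMIs), and 984, 26757, 6412 and 5492 cells were kept in those labelled vehicle IgG 1, vehicle IgG 2, mavrilimumab 1 and mavrilimumab 2, which is the order of all values listed below. Labels and T cell receptor files disagreed. The receptor file labelled vehicle IgG 1 shared 182 of its 193 barcodes with its namesake among the expression libraries, but that labelled mavrilimumab 1 matched the expression library mavrilimumab 2 (2491 of 2749) and that labelled mavrilimumab 2 matched mavrilimumab 1 (4867 of 5659). In 3 of 3 such files the inner sample name gave the other treatment than the label. None of these files matched the expression library vehicle IgG 2, so its label could not be checked in this way. If only some labels were exchanged, the treatment groups would be mixed. Directions between treatments, and which libraries form each group, therefore follow the labels only. Comparisons between cell groups do not depend on the labels. Pairs of expression libraries shared 0 to 60 cell barcodes.

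Levels are given as CPM, the UMIs of a gene per 1000000 UMIs of the summed cells of a group in 1 library. Libraries of this kind tag the 5' end, so levels were compared between groups for 1 gene and not between genes. Intervals (exact Poisson for levels) cover counting error only.

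Cells that met exactly 1 of the 7 rules were used. They were 11992 T cells (Cd3e), 830 natural killer (NK) cells (Ncr1, Klrb1c), 379 B cells (Cd79a, Cd79b), 1739 microglia (P2ry12, Tmem119), 135 monocytes (Ccr2, Ly6c2, Lyz2), 128 neutrophils (Retnlg, Cxcr2) and 15809 neural cells (Nnat and Mdk without Ptprc, the CD45 gene). A level was given where a library held at least 20 cells of a group, which left 21 sums: 4 libraries for T cells and microglia, 3 for NK cells, B cells and monocytes (not vehicle IgG 1), and 2 for neutrophils and neural cells (vehicle IgG 2 and mavrilimumab 2). Each group held the whole of its own marker list, for instance 7 of 7 microglia markers summing to 12330 to 17920 CPM in microglia. The lists include the rule genes, so this was partly set by the rules. Detection alone did not separate the groups, since neural cells also held 7 of 7 microglia markers, at 534 to 1985 CPM. The groups were not free of RNA of other cells: microglia markers summed to 357 to 2853 CPM in the other groups, and the highest sum of neural markers was 673 CPM in B cells, 714 in monocytes, 1402 in microglia, 1469 in NK cells, 1480 in T cells and 3316 in neutrophils. All of these were sums of vehicle IgG 2, against at most 61.7 CPM in any other library. The monocyte group also held dendritic cell markers at 562 to 1054 CPM, so that it is a group by rule and not monocytes alone.

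**Figure D1:**
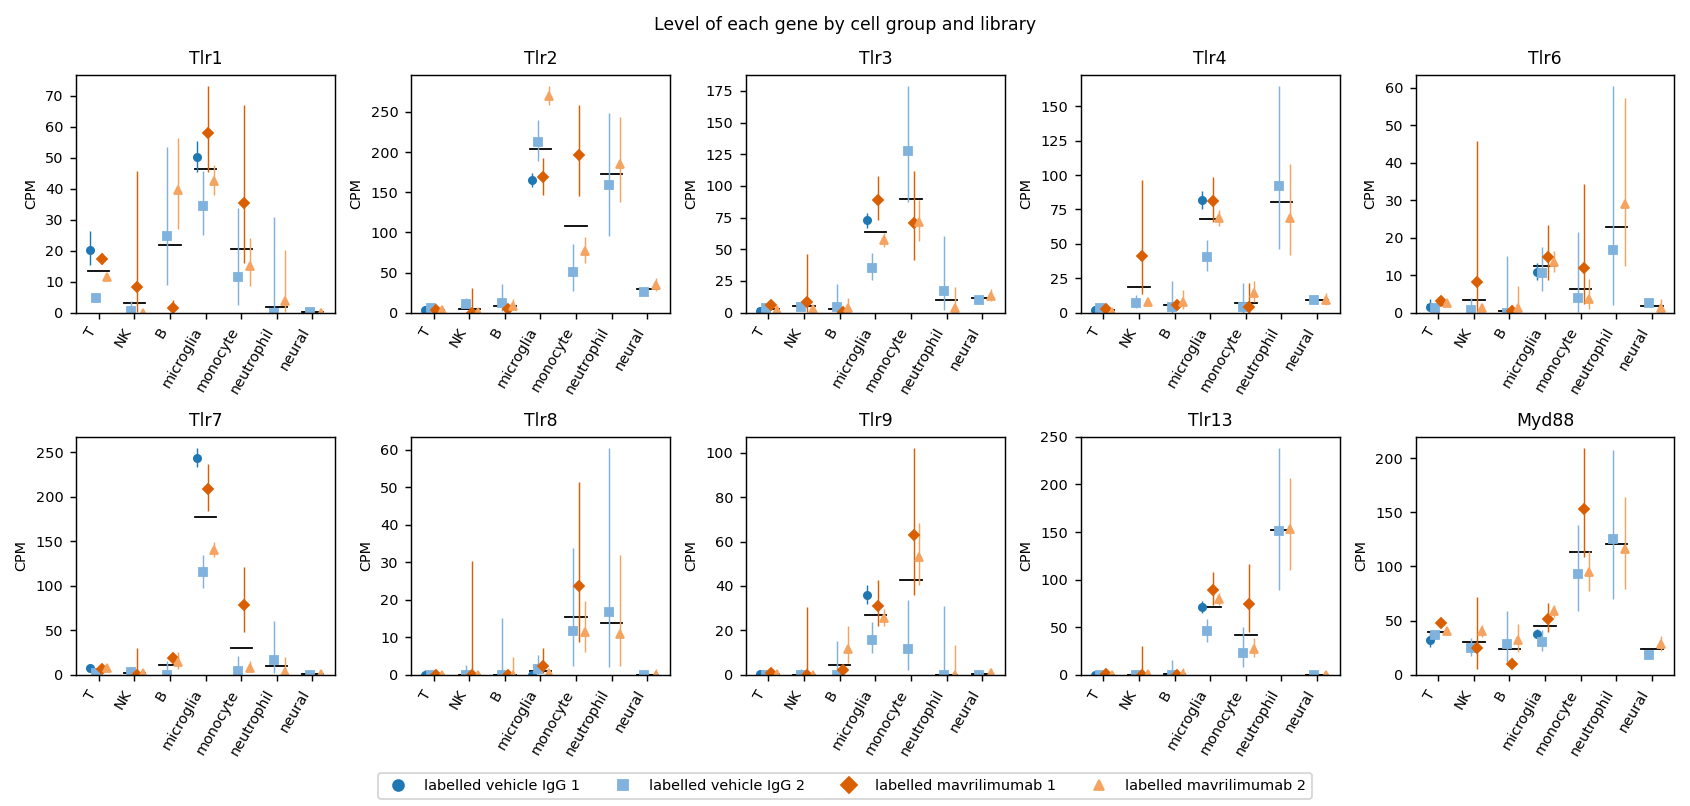
Level of each of the 10 genes (y axis, CPM) in the 7 cell groups (x axis); each point is 1 library, its bar the exact Poisson 95% interval, and the black line the mean over libraries. Tlr7 was higher in every microglial sum (115 to 244 CPM) than in any other, Tlr13 was near 0 outside microglia, monocytes and neutrophils, and Tlr8 was seen mainly in monocytes and neutrophils.

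Tlr2, the partner of Tlr1 and Tlr6 in lipoprotein sensing, had its highest mean level in microglia, with 165, 213, 169 and 270.1 CPM (mean 204.2 ± 49.2, SD, n = 4). Neutrophils had 159 and 186 CPM (172.3 ± 18.7, SD, n = 2), which overlapped the microglial range. Monocytes had 50.2, 196 and 76.8 CPM (107.8 ± 77.9, SD, n = 3), so their libraries differed widely. Neural cells had 25.6 and 34.5 CPM, below every myeloid sum and above every lymphoid sum, since B cells had 4.23 to 12.3, NK cells 0 to 11.0 and T cells 2.80 to 5.96 CPM. The gene lies at chr3:83836272-83841824 (GRCm38.p6, RefSeq).

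Tlr4, the lipopolysaccharide receptor, was high in neutrophils (92.1 and 69.1 CPM, mean 80.6 ± 16.2, SD, n = 2) and in microglia (81.6, 40.4, 81.0 and 68.5 CPM, mean 67.9 ± 19.3, SD, n = 4), whose ranges overlapped. In monocytes it was 3.86, 3.93 and 14.1 CPM, from 1, 1 and 16 UMIs, below every microglial and neutrophil sum. NK cells had 6.89, 41.2 and 7.60 CPM, of which the middle value rests on 5 UMIs of 20 cells. T cells had 0.750 to 3.30 CPM, the lowest range of the 7 groups.

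Tlr1 and Tlr6 are neighbouring genes on chromosome 5, 19491 bases apart. Tlr1 was highest in microglia (50.3, 34.4, 58.1 and 42.5 CPM), and it was also seen in lymphocytes: T cells had 20.3, 4.84, 17.4 and 11.4 CPM and B cells 24.6, 1.54 and 39.7 CPM. Near-empty droplets of at most 100 UMIs held Tlr1 at 54.1, 0, 28.3 and 13.6 CPM, above the T cell level in 3 of 4 libraries and above the B cell level in mavrilimumab 1; the part of such free RNA was not tested. NK cells had 0.689, 8.24 and 0 CPM, from 2 UMIs in all. Tlr6 was highest in neutrophils (16.7 and 29.1 CPM, from 2 and 8 UMIs), followed by microglia (10.7, 10.5, 14.7 and 13.5 CPM), and these 2 ranges did not overlap although the Poisson intervals did.

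Tlr7 and Tlr8, receptors of single-stranded RNA, are neighbours on the X chromosome, 39050 bases apart, and had different patterns. Tlr7 was highest in microglia, at 244, 115, 209 and 141 CPM (mean 177.3 ± 59.6, SD, n = 4). Monocytes had 3.86, 78.6 and 7.95 CPM, B cells 0, 18.5 and 14.1 CPM, and the remaining groups at most 16.7 CPM. Tlr8 had 11.6, 23.6 and 11.5 CPM in monocytes (3, 6 and 13 UMIs) and 16.7 and 10.9 CPM in neutrophils (2 and 3 UMIs). In microglia it was 0, 1.50, 2.45 and 0.417 CPM, below every monocyte and neutrophil sum. No UMI of Tlr8 was seen in NK or B cells, where 3 counts would correspond to 0.466 and 0.828 CPM over the group.

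Tlr13, a receptor of bacterial ribosomal RNA in the mouse, was seen almost only in the 3 myeloid groups. Neutrophils had 151 and 153 CPM, microglia 71.2, 45.6, 89.2 and 79.7 CPM, and monocytes 23.2, 74.7 and 27.4 CPM. The other groups had at most 1.28 CPM, from 0 to 10 UMIs per sum. In neural cells of the library labelled vehicle IgG 2, 1 UMI of Tlr13 was found among 15390 cells.

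Tlr9, a receptor of unmethylated CpG DNA, was seen in monocytes (11.6, 62.9 and 53.0 CPM), in microglia (36.1, 15.7, 31.1 and 25.7 CPM) and, in 2 of 3 libraries, in B cells (0, 2.31 and 11.5 CPM). The 0 comes from 62 B cells, with an upper limit of 15.1 CPM, above both other B cell values. Neutrophils and NK cells had no UMI of it. Against the floor of 3 counts over the 394255 UMIs of the neutrophil sums (7.61 CPM), the mean level was at least 3.57-fold higher in microglia and at least 5.58-fold higher in monocytes. For NK cells, with 6442072 UMIs, of which 4869415 came from mavrilimumab 2, the mean level in microglia was at least 58.3-fold higher.

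Tlr3, a receptor of double-stranded RNA, was high in monocytes (127, 70.7 and 71.5 CPM) and microglia (72.8, 35.1, 89.2 and 57.0 CPM), with overlapping ranges. In neutrophils it was 16.7 and 3.64 CPM, from 2 and 1 UMIs. Neural cells had 10.0 and 13.1 CPM from 726 and 31 UMIs, and the lymphoid groups at most 8.24 CPM.

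Myd88, the shared adaptor, was found in every sum, at 10.4 CPM or more. Monocytes (92.6, 153 and 94.5 CPM) and neutrophils (126 and 116 CPM) lay above all others. Microglia had 37.7, 30.7, 51.5 and 58.5 CPM and T cells 31.8, 36.8, 48.2 and 40.4 CPM, an overlapping range. NK cells had 24.7 to 40.0, B cells 10.4 to 32.0 and neural cells 18.8 and 28.6 CPM. Among the 60 pairs of groups that follow each other in the order of mean levels of a gene, 11 did not overlap between libraries and 49 did. Over all 14201 genes tested, 13.5% of such pairs did not overlap.

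RefSeq promoters (GRCm38.p6) were at hand for 8 of the 10 genes, with 10 windows, and not for Tlr4 and Tlr7. The 250 bases upstream of the start are shown for Tlr13 and Tlr9, since Tlr13 was highest in neutrophils and Tlr9 was not seen there while both were found in microglia and monocytes. Capitals mark matches, on either strand, to GAGGAA, the core bound by the myeloid factor PU.1. The windows are chrX:106143025-106143274 (plus strand) for Tlr13 and chr9:106222348-106222597 (plus strand) for Tlr9.
Tlr13: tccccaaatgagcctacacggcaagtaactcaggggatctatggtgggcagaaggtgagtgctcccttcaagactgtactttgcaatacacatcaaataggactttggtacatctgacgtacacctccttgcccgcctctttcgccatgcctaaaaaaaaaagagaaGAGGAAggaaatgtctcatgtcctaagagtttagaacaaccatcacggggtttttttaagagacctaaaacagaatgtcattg
Tlr9: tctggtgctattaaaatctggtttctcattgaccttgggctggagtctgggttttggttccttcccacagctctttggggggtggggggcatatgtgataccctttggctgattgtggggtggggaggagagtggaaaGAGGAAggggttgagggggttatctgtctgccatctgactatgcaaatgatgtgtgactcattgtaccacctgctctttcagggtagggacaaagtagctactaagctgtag
GAGGAA was found in 4 of the 10 windows, and in 23.3% of all 32851 RefSeq windows of this length. The 4 windows belong to Tlr1, Tlr8, Tlr9 and Tlr13. A match is a description of letters and not of a bound site.

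The cell groups were compared on summed counts, with the library as a block, by the quasi-likelihood test of edgeR over 14201 genes, and a member was called where its false discovery rate (FDR) was under 0.05. Microglia were set against the monocyte group, which also held cells with dendritic genes, as given below. The comparison is therefore not of resident against recruited monocytes alone. The part of the cells with dendritic genes in the calls of Tlr4, Tlr8 and Myd88 was not tested. Of the 10 members, 2 were higher in microglia and 2 lower, where 9.85% and 7.87% of all genes were. Tlr7 was higher by 3.06 on the log2 scale (SE 0.66, FDR = 0.0047). In the monocyte group of mavrilimumab 2, Tlr7 had 0 UMIs in 825169 UMIs of cells with dendritic genes and 9 in 306934 UMIs of the rest. Tlr4 was higher by 2.68 (SE 0.58, FDR = 0.0049). Tlr8 was lower, at -3.65 (SE 0.92, FDR = 0.0195), as was Myd88, at -1.20 (SE 0.24, FDR = 0.0033). Tlr2, Tlr3 and Tlr9, at 1.11, -0.41 and -0.47, did not pass. Without the library labelled mavrilimumab 2, Tlr7 (2.39, FDR = 0.103) and Tlr8 (-3.07, FDR = 0.177) did not pass, for 2 calls, and without mavrilimumab 1 Tlr8 was also lost (FDR = 0.0887) and Tlr13 gained as higher in microglia (1.41, FDR = 0.0491). Tlr4 did not pass with cells of several rules kept (FDR = 0.0585), nor Tlr7 without the library block (FDR = 0.0536).

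Microglia against neutrophils gave 2 members higher and 3 lower, where 9.75% and 7.01% of all genes were. Tlr7 was higher in microglia by 3.97 (SE 1.06, FDR = 0.0178) and Tlr3 by 2.89 (SE 0.79, FDR = 0.0209). Tlr13 (-1.36, SE 0.41, FDR = 0.032), Myd88 (-1.36, SE 0.30, FDR = 0.0054) and Tlr8 (-3.81, SE 1.14, FDR = 0.0435) were lower. Tlr2 and Tlr4, at 0.34 (SE 0.58) and -0.47 (SE 0.58), did not pass. Neutrophils rest on 2 libraries, of which vehicle IgG 2 held neural markers at 3316 CPM: without that labelled mavrilimumab 2 no member was called (165 genes against 2380), and without vehicle IgG 2 the calls fell to 2. Without mavrilimumab 1, Tlr13 (FDR = 0.0581) and Tlr8 (FDR = 0.0837) were lost and Tlr1 was gained, for 4 calls.

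Monocytes against neutrophils gave 1 member higher and 2 lower (all genes: 6.09% and 4.32%). Tlr3 was higher in the monocyte group by 3.31 (SE 0.78, FDR = 0.0143), where 30 of 33, 16 of 18 and 80 of 81 of its UMIs lay in cells that also held dendritic cell genes. Tlr4 (-3.15, SE 0.68, FDR = 0.0087) and Tlr13 (-2.37, SE 0.45, FDR = 0.0038) were lower. The same limit held: 0 members were called without mavrilimumab 2 and 1 without vehicle IgG 2. Myd88 and Tlr8 did not pass, at -0.16 each.

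**Figure D2:**
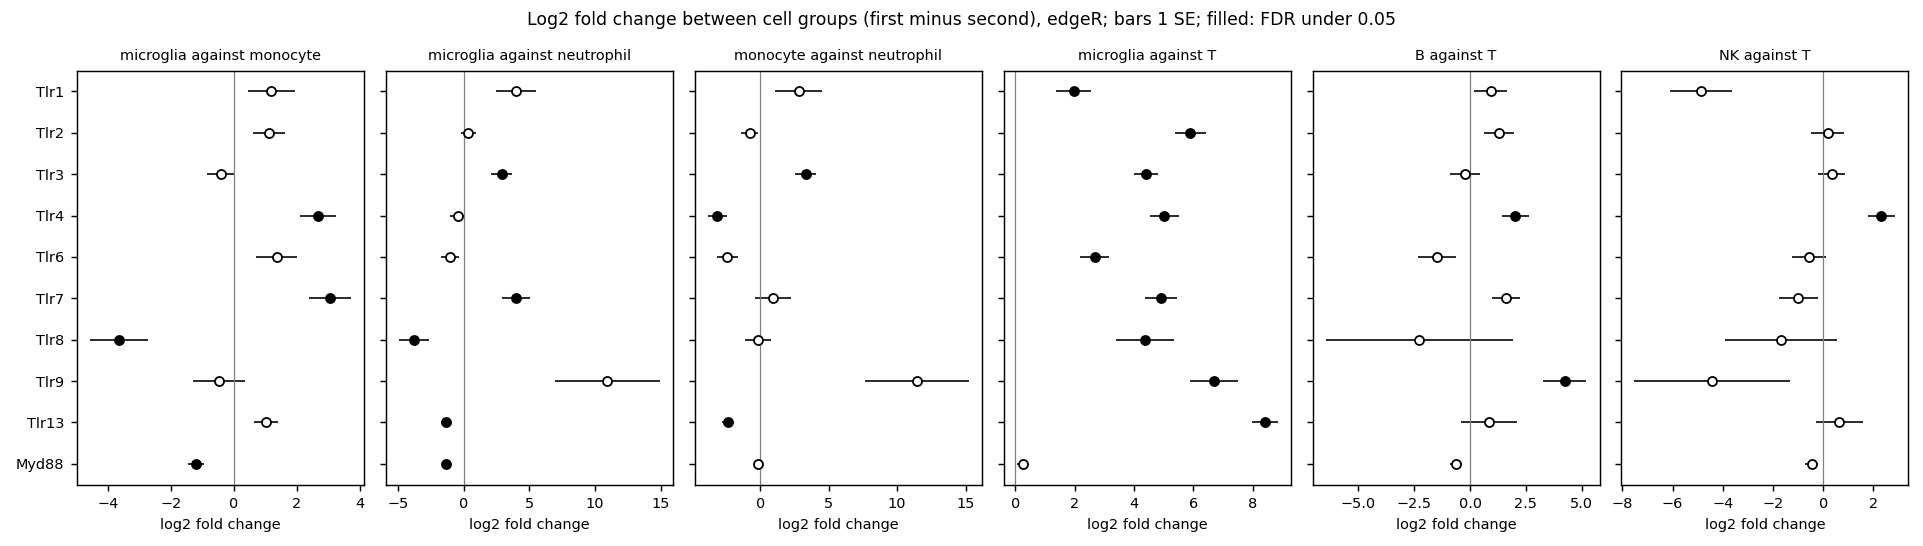
Log2 fold change (x axis, first group minus second) of each gene in the 6 comparisons of cell groups; points are edgeR estimates, bars 1 SE, and filled points have an FDR under 0.05. In microglia against T cells 9 of 10 genes were filled and to the right; the estimates of Tlr9 in neutrophils and NK cells and of Tlr8 in B and NK cells come from groups with no UMI and are not bounded.

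Microglia against T cells separated the receptors from their adaptor. All 9 receptors were higher in microglia (all genes: 20.3% higher and 18.2% lower), by 1.96 (SE 0.58, FDR = 0.0132) for Tlr1 to 8.41 (SE 0.43, FDR = 2.88e-09) for Tlr13. Myd88 differed by 0.25 (SE 0.21, FDR = 0.38) and did not pass. Without mavrilimumab 1, Tlr8 did not pass (FDR = 0.0603) and 8 members were called; the count was 9 without any 1 of the others.

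Within lymphocytes few members passed. In B against T cells, Tlr9 (4.24, SE 0.97, FDR = 0.016) and Tlr4 (2.02, SE 0.61, FDR = 0.0491) were higher in B cells, where 4.01% of all genes were higher and 5.13% lower. In all, B cells held 15 UMIs of Tlr9 and 21 of Tlr4. The Tlr9 levels overlapped between these groups, since 1 B cell sum was at 0. The count was 0 without mavrilimumab 1 or without mavrilimumab 2, and 1 without vehicle IgG 1. In NK against T cells, Tlr4 was higher in NK cells (2.32, SE 0.55, FDR = 0.0425; all genes: 0.873% higher and 1.06% lower), and Tlr1, at -4.86 (SE 1.24, FDR = 0.0591), did not pass. With cells of several rules kept, Tlr4 did not pass (FDR = 0.0704) and Tlr1 did, as lower in NK cells (-3.54, FDR = 0.0159). The Tlr4 call was also lost without vehicle IgG 1 (FDR = 0.0975), without mavrilimumab 1 (FDR = 0.292) and without mavrilimumab 2 (FDR = 0.458), and Tlr1 passed without mavrilimumab 1 (-5.71, FDR = 0.0398). Near-empty droplets with at most 100 UMIs held Tlr4 at 46.0, 7.91, 8.78 and 18.3 CPM, above the NK and B cell level of the same library except in NK cells of mavrilimumab 1; the part of such free RNA in these calls was not tested.

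Tlr1 in T cells was followed further after its level was seen, by dividing T cells into those with Cd4 and no Cd8a UMI and the reverse. In Cd4 cells Tlr1 was 24.7, 15.1, 27.5 and 26.9 CPM, and in Cd8a cells 22.0, 4.87, 11.3 and 9.23 CPM. The Cd4 value was the higher in 4 of 4 libraries, with separate Poisson intervals in those labelled mavrilimumab 1 and 2. Myd88 was also higher in Cd4 cells in 4 of 4 libraries (36.3 against 24.2, 42.3 against 32.1, 58.3 against 39.7 and 42.8 against 40.3 CPM), with separate intervals only in mavrilimumab 1. The same held for Tlr4 at low levels (2.32 against 1.10, 12.1 against 3.25, 4.35 against 1.53 and 1.03 against 0.453 CPM), again with separate intervals only in mavrilimumab 1. Tlr7 had no such order, with 2.56 against 8.61 CPM in mavrilimumab 2 and 10.0 against 6.61 in vehicle IgG 1. Tlr2 was lower in Cd4 cells of vehicle IgG 1 and vehicle IgG 2 (2.3 against 5.5 and 3.0 against 5.6 CPM). Some counts were small: in vehicle IgG 2, 113 Cd4 cells held 5 UMIs of Tlr1. In vehicle IgG 1, Tlr4 rests on 3 UMIs against 1. These divisions are a description and carry no test, and the share of all genes with such an order was not computed. Near-empty droplets held UMIs of both Tlr1 and Tlr7 in vehicle IgG 1, mavrilimumab 1 and mavrilimumab 2. The ratio of Tlr1 to Tlr7 UMIs was 2.545, 2.545 and 1.524 in T cells of these libraries and 0.314, 0.86 and 0.517 in their droplets. The ratio depends on free Tlr7 as well as free Tlr1, and the part of free RNA in the T cell levels was not tested.

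The monocyte group was divided in the same way by at least 2 UMIs of Flt3, Xcr1, Clec9a, Siglech and Ccr9 together, genes of dendritic cells of which Siglech is also expressed by microglia. Leaving Siglech out gave the same numbers of cells and of Tlr3, Tlr7 and Tlr9 UMIs. Cells with these genes were 13, 8 and 41 of the group and held most of its Tlr3 UMIs, 30, 16 and 80. These UMIs lay in 10 of the 13, 3 of the 8 and 12 of the 41 cells, so that in 2 of 3 libraries most cells with dendritic genes had none. The remaining 29, 24 and 19 cells of the group held 3, 2 and 1. Tlr9 did not divide this way in mavrilimumab 2, with 40 UMIs in the 41 cells with dendritic genes and 20 in the 19 cells without. In vehicle IgG 2 it had 0 UMIs in the 13 cells with dendritic genes and 3 in the 29 without. Tlr7 was absent from the 41 cells of mavrilimumab 2 (0 UMIs, upper limit 4.47 CPM) and had 9 UMIs in the 19 others.

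**Figure D3:**
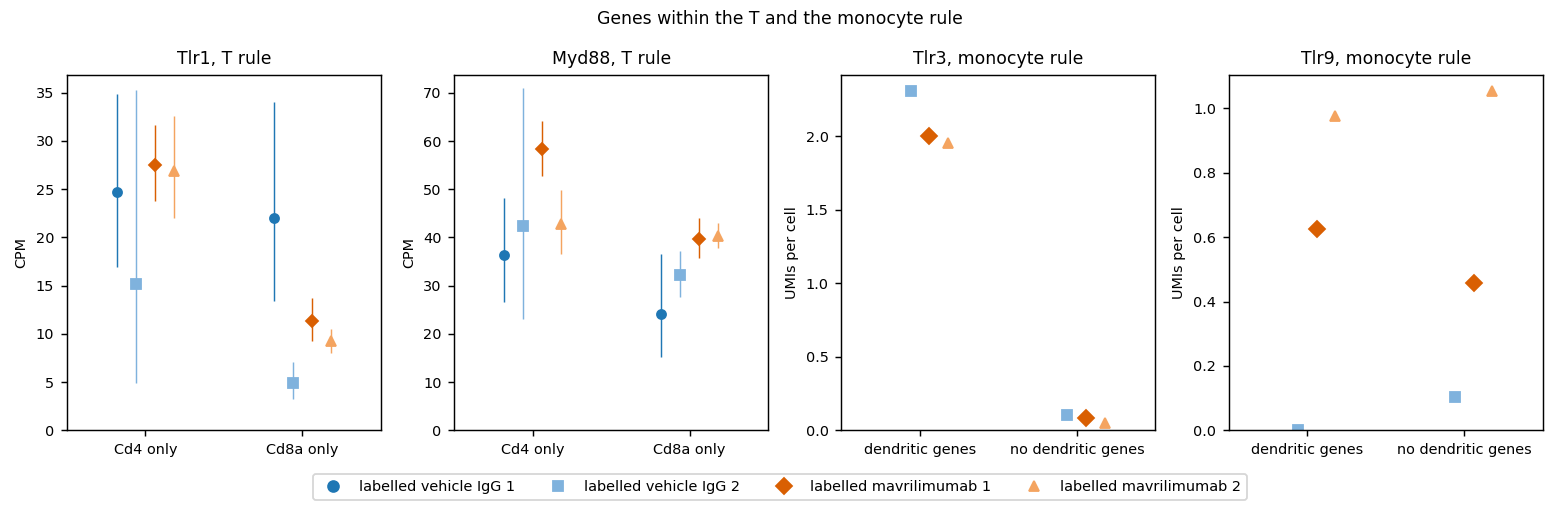
Tlr1 and Myd88 in T cells with Cd4 or with Cd8a UMIs only (CPM, bars exact Poisson 95% intervals), and Tlr3 and Tlr9 in cells of the monocyte rule with and without dendritic cell genes (UMIs per cell); each point is 1 library. The mean of Tlr3 lay near 2 UMIs per cell with dendritic genes, from 10 of 13, 3 of 8 and 12 of 41 cells, and near 0 without, whereas Tlr9 in mavrilimumab 2 was near 1 in both.

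B cells differed by library in kind. In the library labelled mavrilimumab 1, 151 of 178 B cells had at least 5 UMIs of Jchain, Xbp1 and Sdc1 together, genes of antibody-secreting cells, against 6 of 62 and 1 of 138 in vehicle IgG 2 and mavrilimumab 2. The 151 cells held no Tlr1 UMI and 1 of Tlr9 in 2514986 UMIs, but 43 of Tlr7 (17.1 CPM, 95% interval 12.4 to 23.0). The other 27 cells held 4, 5 and 5 UMIs of Tlr1, Tlr9 and Tlr7. Near-empty droplets of that library held these genes at 28.3, 3.51 and 32.9 CPM, and microglia markers summed to 1544 CPM in its B cells. The part of such free RNA in the B cell values was not tested. Tlr1 and Myd88 in all B cells of that library stood at 1.54 and 10.4 CPM. The part of the antibody-secreting cells in these levels, in B against T cells and in the treatment comparison of B cells was not tested.

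Neural cells, which lack the CD45 gene by rule and may include tumour cells, were 15390 of the 26757 cells of vehicle IgG 2, although a sort for CD45+ cells would be expected to remove them. Their receptor set was not that of microglia. In that library they held 1851 UMIs of Tlr2, 726 of Tlr3, 649 of Tlr4, 181 of Tlr6 and 1357 of Myd88, but 11 of Tlr7, 1 each of Tlr13 and Tlr8, and none of Tlr9. The ratio of Tlr7 to Tlr2 UMIs was 0.00594 (95% interval 0.00296 to 0.0107) in neural cells and 0.54 (0.441 to 0.66) in microglia of the same library. In mavrilimumab 2 the ratios were 0.0244 (0.0029 to 0.091) and 0.521 (0.483 to 0.563), and near-empty droplets there gave 0.434 (0.367 to 0.511). In vehicle IgG 2, near-empty droplets held Tlr2 at 25.5 CPM, the neural level itself, and gave a ratio of 0.0345 from 1 and 29 UMIs. They held Tlr3 and Tlr4 at 10.5 and 7.91 CPM, against 10.0 and 8.98 in neural cells. Droplets of mavrilimumab 2 held Tlr2, Tlr3 and Tlr4 at 60.9, 23.2 and 18.3 CPM, against 34.5, 13.1 and 9.26 in neural cells. The part of free RNA in the neural levels was not tested.

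**Figure D4:**
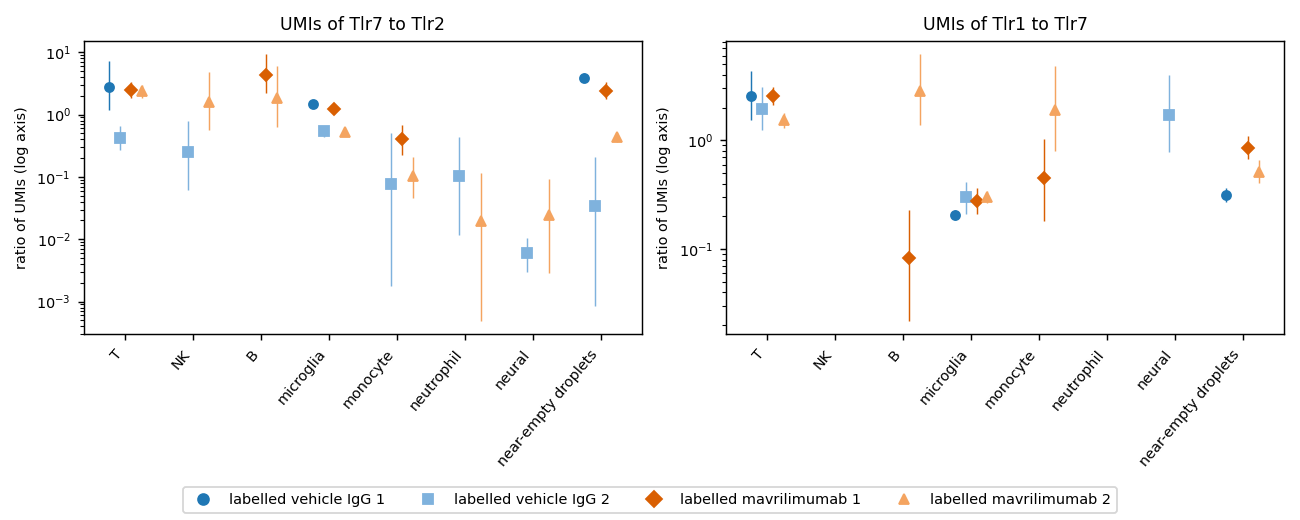
Ratio of UMIs of Tlr7 to Tlr2 (left) and of Tlr1 to Tlr7 (right) by cell group and in near-empty droplets (x axis), on log axes; points are libraries, bars exact 95% intervals, and sums with under 10 UMIs of both genes together, or with none of either gene, are not drawn. In neural cells Tlr7 to Tlr2 was 0.00594 and 0.0244, against 0.521 to 1.48 in microglia.

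Per cell, the receptors were sparse. With each cell thinned to 1000 UMIs, 41.4% to 45.7% of microglia had a UMI of at least 1 of the 9 receptors, against 2.19% to 4.09% of T cells. Tlr7 was found in 18.0%, 13.4%, 17.7% and 11.4% of thinned microglia and in 0.254% to 1.36% of thinned T cells. Without thinning these shares were 76.1%, 33.5%, 60.1% and 61.1% of microglia, at a median of 13720, 3063, 5446 and 10861 UMIs, and 0.712% to 7.27% of T cells, at a median of 2530 to 12558 UMIs. The T cell library with the highest share, vehicle IgG 1, was also the one whose near-empty droplets held the most Tlr7, 172 CPM against 0.879 to 32.9 in the others. Tlr13 was found in 5.57%, 6.12%, 7.58% and 7.96% of thinned microglia.

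The libraries labelled mavrilimumab were compared with those labelled vehicle IgG within each group. The question was whether the Toll-like receptors differed at recurrence after blockade of the GM-CSF receptor. No member was called by edgeR or by DESeq2 in T cells, NK cells, B cells, microglia or monocytes, where 7, 4, 3, 9 and 6 members passed the filter on low counts. Among all genes 0%, 10.5%, 0%, 0% and 1.08% were called in either direction. At an unadjusted p under 0.05, edgeR gave 0, 1, 1, 1 and 2 members and 721, 1741, 397, 347 and 581 genes; DESeq2 called 153, 227, 26, 9 and 27 genes. NK cells, B cells and monocytes had only vehicle IgG 2 as the vehicle library, and neutrophils and neural cells, with 1 library per group, had no test.

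In microglia, 3 of the 9 members tested did not overlap between the labels (Myd88, Tlr13 and Tlr6, all higher with the mavrilimumab label), where 31% of all 12169 genes did not overlap and 12.9% did so in that direction. Myd88 stood at 37.7 and 30.7 CPM with the vehicle IgG label and at 51.5 and 58.5 CPM with the mavrilimumab label. Its log2 fold change was 0.74 (SE 0.25, FDR = 1, unadjusted p = 0.0296). Tlr13 was 71.2 and 45.6 against 89.2 and 79.7 CPM, with 0.58 (SE 0.31). Tlr6 (10.7 and 10.5 against 14.7 and 13.5 CPM) gave 0.47 (SE 0.34). The microglia of vehicle IgG 2 stood apart in markers: neural markers summed to 1402 CPM against 7.87 to 61.7 in the other libraries, oligodendrocyte markers to 946 against 65.3 to 73.6, and microglia markers to 12330 against 17600 to 17920. Those of mavrilimumab 2, with the highest Myd88, held erythroid markers at 319.8 CPM against 0 to 49.4 in the others. The part of either in these values was not tested. Without vehicle IgG 2, Myd88 gave 0.61 (FDR = 0.205) and Tlr13 0.28 (FDR = 0.582). Tlr7 overlapped, with 0.02 (SE 0.45), and Tlr9 gave 0.14 (SE 0.45). With cells thinned to 1000 UMIs, the share of microglia with a UMI was compared between the vehicle IgG and the mavrilimumab label. It was 5.84% ± 0.393 against 7.77% ± 0.269 for Tlr13 (SD, n = 2 each). For Tlr4 it was 5.62% ± 0.939 against 5.27% ± 0.399, and for Tlr7 15.7% ± 3.21 against 14.5% ± 4.45. Such shares were not computed for other genes, so no count of members by direction is given. Thinned to 500 UMIs, Tlr7 was found in 9.21% ± 2.72 against 6.42% ± 0.919. No two-sided exact permutation p was under 0.333, the smallest that 2 against 2 allows.

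Among T cells, neural markers summed to 1480 CPM in vehicle IgG 2 against 4.35 to 26.7 CPM in the others, and microglia markers to 2853 CPM in vehicle IgG 1 against 512 to 1136 CPM; the part of this RNA in the values was not tested. In T cells, Tlr6 was 1.45 and 1.29 against 3.20 and 2.55 CPM (log2 1.17, SE 0.45, FDR = 0.799) and Myd88 31.8 and 36.8 against 48.2 and 40.4 CPM (0.46, SE 0.19, FDR = 0.799). They were the 2 of 7 members tested that did not overlap, where 32.3% of all 14246 genes did not and 11.7% did so with the mavrilimumab label higher. T cells with only Cd4 and with only Cd8a UMIs were 110 and 63 of 220 in vehicle IgG 1. In vehicle IgG 2 they were 113 and 1572 of 3931. The part of the Cd4 and Cd8a makeup in the T cell values was not tested. In monocytes Tlr9 was 11.6 CPM in vehicle IgG 2, against 62.9 and 53.0 CPM with the mavrilimumab label (2.31, SE 0.76, FDR = 0.251), and Tlr2 was 50.2 against 196 and 76.8 CPM (1.41, SE 0.62, FDR = 0.456). The vehicle sum of Tlr9 holds 3 UMIs. Cells with dendritic genes were 13 of 42 in vehicle IgG 2 and 8 of 32 and 41 of 60 in mavrilimumab 1 and 2; macrophage markers summed to 15.4, 161 and 38.9 CPM in these 3 libraries and microglia markers to 455, 1690 and 1086 CPM, in the same order as Tlr2. The part of this makeup in these values was not tested. In NK cells Tlr2 was 11.0 against 0 and 1.44 CPM (-2.93, SE 1.33, FDR = 0.212), while the Tlr2 level of near-empty droplets was 25.5, 13.6 and 60.9 CPM in the same 3. In B cells, Tlr7 was 0 against 18.5 and 14.1 CPM, with an unadjusted p of 0.0451 and an FDR of 1. The 0 comes from 62 cells and has a Poisson upper limit of 15.1 CPM, above the 14.1 CPM of mavrilimumab 2. Near-empty droplets of these libraries gave Tlr7 at 0.879, 32.9 and 26.4 CPM. Microglia markers in B cells summed to 357, 1544 and 1186 CPM. Both ran in the same order as Tlr7, and their part was not tested. The difference of the treatment effect between microglia and T cells was tested as an interaction, and 0 of 13281 genes and no member passed (Tlr2 at 0.81, SE 0.35, unadjusted p = 0.0738).

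**Figure D5:**
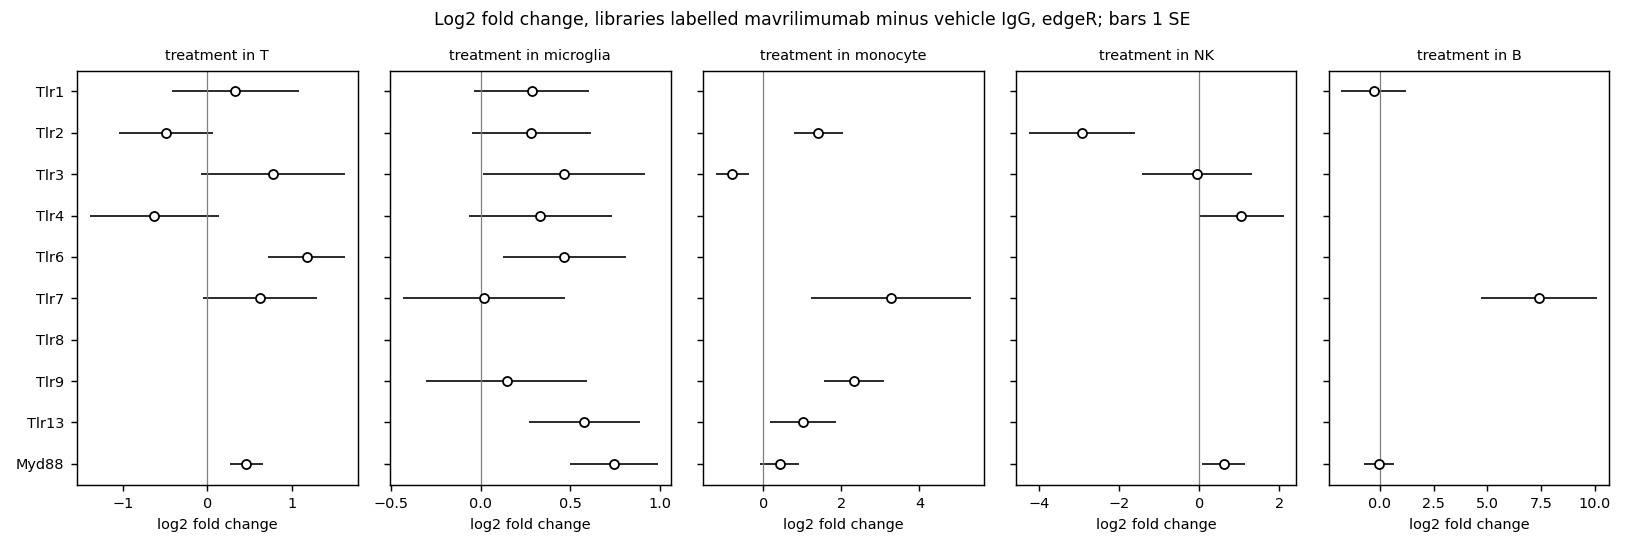
Log2 fold change (x axis, libraries labelled mavrilimumab minus those labelled vehicle IgG) of the members that passed the filter in 5 cell groups; points are edgeR estimates and bars 1 SE. None had an FDR under 0.05; Tlr7 in B cells and Tlr7 in monocytes have the widest bars.

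Other genes of the pathway were taken from a list of 56, of which 52 were tested between cell groups. In microglia against T cells 24 were higher and 4 lower (all genes: 20.3% and 18.2%), with a median of 1.11 (all genes: 0.02). They included 8 of 10 co-receptors and chaperones, such as Cd14, the lipopolysaccharide co-receptor (9.13, SE 0.53), Cd180 and its partner Ly86 (8.01, SE 0.56, and 8.32, SE 0.45), and 8 of 9 target genes, such as the chemokine gene Ccl3 (5.11, SE 0.90). None of the 7 inhibitors was higher and 3 were lower.

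Microglia against monocytes gave 7 higher and 2 lower (all genes: 9.85% and 7.87%), with a median of 0.01 (all genes: 0.26). Ccl4 (6.06, SE 0.89), Ccl3 (3.85, SE 0.99) and Ly86 (2.51, SE 0.40) were higher and Cd36, a scavenger receptor and co-receptor, lower (-2.81, SE 0.92). Without mavrilimumab 2 the counts were 2 and 0, without mavrilimumab 1 they were 3 and 2, and Ccl3 passed in neither (FDR = 0.149 and 0.0642). With cells of several rules kept, 2 were higher and 6 lower, so the balance of the counts turned over. Cd36 did not pass without mavrilimumab 2, vehicle IgG 1 or vehicle IgG 2 (FDR = 0.0766 to 0.193). Microglia against neutrophils gave 5 higher and 10 lower (all genes: 9.75% and 7.01%), and monocytes against neutrophils 4 higher and 11 lower (all genes: 6.09% and 4.32%). Without mavrilimumab 2 these counts fell to 3 and 2 and to 1 and 0, and Ptgs2 in both, and Cxcl2 and Irf8 in the second, did not pass (FDR = 0.121 to 0.209). In both, the target genes Cxcl2, a neutrophil chemokine, and Ptgs2, the inducible cyclooxygenase, were among the lower: Cxcl2 had mean levels of 12.6 CPM in microglia, 53.3 in monocytes and 8754 in neutrophils, and Ptgs2 1.79, 0.589 and 411 CPM. Irf8, a factor of the mononuclear lineage, was higher in monocytes than in neutrophils by 7.47 (SE 0.89).

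In B against T cells 10 were higher and 6 lower (all genes: 4.01% and 5.13%), with Cd180 (5.14, SE 0.56), Ly86 (3.89, SE 0.41) and Unc93b1, the chaperone of the endosomal receptors (3.09, SE 0.44), higher and Ccl4 lower (-5.96, SE 1.12). The counts were 4 and 2 without mavrilimumab 1 and 6 and 0 without mavrilimumab 2, where Ccl4 did not pass (FDR = 0.087). With cells of several rules kept the counts were 13 and 0, and Ccl4 was at 0.025. In NK against T cells 1 was higher, Irf8 (2.89, SE 0.42), and 1 lower (all genes: 0.873% and 1.06%), and neither passed without mavrilimumab 2 (Irf8 FDR = 0.0874). Between treatments, 0 of the list were called in T cells, B cells and microglia. This depended on the setting: in T cells DESeq2 called 1 higher and 1 lower, and in microglia the replicate block called 1 lower. The microglial count also changed when either vehicle IgG library was left out. In NK cells and monocytes the vehicle arm is the single library vehicle IgG 2, whose own spread was not measured. The calls that follow therefore set 2 libraries against that library. In NK cells it held neural markers at 1469 CPM against 0 and 13.4 in mavrilimumab 1 and 2, and oligodendrocyte markers at 675 CPM against 90.6 and 70.0; in monocytes neural markers stood at 714 CPM against 0 and 2.65. The part of this RNA in the calls was not tested. In NK cells, where mavrilimumab 1 holds 20 cells, 2 of 42 tested were higher and 1 lower (all genes: 0.544% and 10%), of which Cxcl10 and Irf7, both interferon-responsive, gave 3.20 (SE 0.50) and 1.37 (SE 0.42); with DESeq2 Irf7 did not pass (adjusted p = 0.697). In monocytes, whose vehicle sum holds 42 cells and whose dendritic, macrophage and microglia markers differed as given above, 2 of 33 were higher and 2 lower (all genes: 0.196% and 0.889%). Irf7 (2.97, SE 0.62) and Il1b (2.76, SE 0.59) were the higher and Ccl3 (-3.79, SE 0.51) and Cxcl2 (-2.90, SE 0.65) the lower with the mavrilimumab label. With DESeq2 only Irf7 passed among these 4, and with cells of several rules kept only Il1b did, where Cxcl2 was at 0.13.

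The genes whose pattern was most like that of a member were found by Pearson's r of log2(CPM + 1) over the 21 sums, among 8413 genes. The sums share libraries, depth and free RNA, so r is a description. Tlr13 was most like Nlrp3, an inflammasome sensor (r = 0.985), Clec5a (0.984) and Csf3r, the G-CSF receptor (0.984). Tlr2 was most like Atp6v0c, Pfkfb4 and the myeloid factor gene Cebpa (0.961, 0.95 and 0.949), Tlr9 most like Gm35154, Pld4 and Erp29 (0.96, 0.949 and 0.946), and Tlr7 most like Ctss, a lysosomal protease, Gpr84 and Ang (0.887, 0.886 and 0.873). Tlr3 was followed by Cyp27a1 (0.93), Tlr4 by Lpin2 (0.888), Tlr1 by Traf5 (0.852) and Myd88 by Dram1 (0.897). Among the members, the highest r was between Tlr2 and Tlr13 (0.889), followed by Tlr6 with Tlr13 and Tlr8 with Myd88 (0.865 each), and the lowest was between Tlr1 and Tlr8 (0.0706).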

How the data were processed

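The deposited matrices hold raw UMI counts per gene and droplet barcode, unfiltered, that the authors produced with Cell Ranger (version 9.0.1 in the file headers, 7 and 7.1.0 per the submitters' processing notes, which also name Scanpy 1.8.2 and the build mm10). The 3 deposited T cell receptor files served only to check labels. Barcodes with at least 1000 UMIs (500 for neutrophils), 200 to 6000 genes and no more than 10% mitochondrial UMIs were retained. Cells were grouped by fixed UMI rules on marker genes: Cd3e of at least 1 for T cells, and summed rule genes of at least 3 for neural cells. The sum was at least 2 for NK cells, B cells, microglia and neutrophils. Monocytes needed at least 2 UMIs of Ccr2 and Ly6c2 together and at least 2 of Lyz2. NK cells and monocytes also had no Cd3e UMI. The 1119 cells that met several rules were left out, which is how doublets were treated, and 7514 met none.

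Counts were summed per library and group of at least 20 cells and tested with edgeR 4.0.16 (R 4.3.3, TMM, filterByExpr, quasi-likelihood, Benjamini-Hochberg FDR of 0.05 over all genes tested); a standard error is the fold change over the root of its F statistic. The study describes limma and edgeR on subsets defined by cluster and does not state the unit of replication. Here the library is the replicate, and a lone library is assumed to vary like the other group. For shares of cells with a UMI, each cell was thinned at random to 1000 UMIs. DESeq2 1.42.0 was an alternative, with others given in the closing section. Tests were checked on simulated data. Named genes were all members, up to 4 called pathway genes per comparison by size of change with a mean of at least 20 CPM, and 3 genes of like pattern per member with at least 50 CPM, of which some are printed. Sequences and coordinates are RefSeq's (GRCm38.p6). Figures used matplotlib 3.10.9 and Python 3.11.15. The members and lists were chosen with earlier results of these data known.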

Additional observations from a re-analysis of the deposited data

How the results depend on the processing

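Across settings the comparison of microglia with T cells was the firmest: 8 to 9 of 10 members were called under every alternative and left-out library. No setting called a member between treatments. Leaving out each library in turn gave ranges of members called of 2 to 4 for microglia against monocytes, 0 to 5 for microglia against neutrophils, 0 to 3 for monocytes against neutrophils, 0 to 2 for B against T cells and 0 to 1 for NK against T cells, and of genes called of 650 to 2179, 165 to 2165, 14 to 1367, 429 to 1969 and 21 to 373 in that order. In microglia between treatments the genes called ranged from 0 to 855. Fits of NK cells, B cells and monocytes between treatments without a library they use could not be made, since a group would be empty or no residual degree of freedom would be left.

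With cells that meet several rules kept, 5 members were called in B against T cells, and with at least 2000 UMIs per cell 1. Without the library block it was 0. In NK against T cells it was 0 with DESeq2 size factors in edgeR, with at least 2000 UMIs and without the library block, and 2 with DESeq2 and with no filter on low counts. In microglia against neutrophils it was 3 with no filter and 3 without the library block, and 4 with at least 2000 UMIs or with cells of several rules kept. In monocytes against neutrophils it was 4 with DESeq2, with its size factors in edgeR and with at least 2000 UMIs, and 2 with cells of several rules kept or without the library block. The genes called in NK against T cells (main count 274) were 486 with DESeq2, 436 with no filter, 150 with at least 2000 UMIs and 134 without the library block. Between treatments, DESeq2 called 153 genes in T cells, 26 in B cells, 227 in NK cells, 9 in microglia and 27 in monocytes. With no filter it was 361 in B cells, 1914 in NK cells, 23 in microglia and 359 in monocytes. In monocytes DESeq2 size factors gave 216 genes and keeping cells that meet several rules 107. The cause of these moves was not tested. With cells of several rules kept, Tlr3 and Tlr13 lost their calls against neutrophils (FDR = 0.08 to 0.218); Tlr1 in microglia against T cells (FDR = 0.0576) and Tlr13 in both neutrophil comparisons (FDR = 0.0794 and 0.253) lost theirs without the library block.

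Same-numbered libraries of the 2 treatments share only a number. Their deviations from the group means correlated at 0.448 in T cells and 0.392 in microglia. With 2 libraries per group both numbers give the same value by construction, and its sign follows the numbering. With the replicate block 165 genes were called in microglia, 0 in T cells and no member in either.

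No called value of a member reversed. Of the named pathway genes, 2 called values reversed with cells of several rules kept: Ccl4 in B against T cells (0.025) and Cxcl2 between treatments in monocytes (0.13). Between treatments, Myd88 in B cells changed to 0.080 with no filter and 0.29 with cells of several rules kept, Tlr1 in B cells to 0.080 with at least 2000 UMIs, Tlr7 in B cells to -0.98 with cells of several rules kept, and Tlr3 in NK cells to 0.28 with DESeq2 and 0.39 with those cells kept. With those cells kept, Tlr3 (1.35), Tlr6 (0.27) and Tlr8 (2.74) in B against T cells and Tlr13 in NK against T cells (-0.57) reversed. With DESeq2, Tlr8 was 2.51 in B and 1.67 in NK against T cells, but these groups held 0 UMIs of it and T cells 3, so that neither sign carries weight. Tlr8 in monocytes against neutrophils was 0.047 with at least 2000 UMIs and 0.26 without the library block.

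Among percentages of cells with a UMI, differences between treatments reversed when thinned to 500 UMIs for Myd88 (-0.218), Tlr4 (0.0073) and Tlr7 (0.304) in T cells and Tlr8 in microglia (-0.146), and when not thinned for Tlr1 (-2.69), Tlr7 (0.602) and Tlr9 (-0.0178) in T cells and Tlr4 (7.42) and Tlr7 (5.8) in microglia. When leaving out each library, these differences ranged from -0.066 to 1.14 for Tlr1, -0.379 to 0.18 for Tlr2, -0.0011 to 0.355 for Tlr3 and -0.651 to 0.459 for Tlr7 in T cells, and from -0.019 to 2.2 for Tlr1, -0.9 to 4.45 for Tlr2, -1.01 to 0.318 for Tlr4 and -4.29 to 2 for Tlr7 in microglia.

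Log2 fold changes that reversed without 1 library ranged, between treatments in T cells, from -0.37 to 1.67 for Tlr1, -0.87 to 0.19 for Tlr2, -0.060 to 1.98 for Tlr3, -1.66 to 0.021 for Tlr4 and -0.0096 to 1.64 for Tlr7. In microglia they ranged from -0.0023 to 0.59 for Tlr1, -0.13 to 0.59 for Tlr2, -0.00052 to 1.10 for Tlr3, -0.098 to 0.96 for Tlr4, -0.45 to 0.68 for Tlr7 and -0.34 to 0.91 for Tlr9. In B against T cells they ranged from -0.15 to 1.91 for Tlr1, -0.83 to 0.84 for Tlr3 and -4.57 to 2.67 for Tlr13, in NK against T cells from -1.11 to 1.03 for Tlr2 and -3.46 to 1.03 for Tlr13, in microglia against monocytes from -0.71 to 0.029 for Tlr3, and in monocytes against neutrophils from -0.34 to 2.44 for Tlr7.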
